A study of Mus musculus with 9 samples.

Results

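The 9 genes described here encode the enzymes of the pentose phosphate pathway and a pair of further cytosolic enzymes that make NADPH. They were chosen by symbol: G6pdx, Pgls and Pgd as the oxidative branch, Rpia, Rpe, Tkt and Taldo1 as the non-oxidative branch, and Me1 and Idh1 as other NADPH sources. All 9 were found among the 24419 gene symbols of the count table. They were measured in whole liver of 9 male FVB mice on a normal diet, in 3 groups of 3 libraries.

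The oxidative branch converts glucose-6-phosphate to ribulose-5-phosphate and reduces NADP to NADPH on the way. The non-oxidative branch interconverts pentoses, hexoses and trioses, so it can return pentose carbon to glycolysis or make ribose from glycolytic sugars. NADPH is the reductant of glutathione and thioredoxin recycling and of fatty acid and sterol synthesis in liver. NRF2, the transcription factor encoded by NFE2L2, drives antioxidant genes and is known to drive several genes of this pathway.

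The CTRL group was aged 13, 13 and 17 weeks. In MODEL1 each mouse was aged 18 weeks and carried plasmids encoding NFE2L2 with the change G31A and CTNNB1 (beta-catenin) with T41A. MODEL2 mice, 19, 20 and 22 weeks old, carried NFE2L2 with T80K and the same CTNNB1 T41A. In both models 20 µg of each plasmid in 2 ml of saline was given by hydrodynamic injection into the tail vein together with a Sleeping Beauty transposase. This route reaches mainly hepatocytes, and in part of them only, while the RNA came from whole liver. The labels do not say whether CTRL mice were injected. The design text of the series mentions controls with unmutated NFE2L2 beside CTNNB1 T41A, and whether the sequenced CTRL mice are those is unclear. No group carried either change alone, so the effects of NFE2L2 and CTNNB1 cannot be told apart. Every model mouse was older than every CTRL mouse, so age and group were confounded. No label says that the libraries of a group came from separate litters or cages; p-values measure the spread between these libraries.

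Library totals ran from 219504 to 325177 counts, at which 3 counts, as many as an observed 0 may hide, equalled 9.23 to 13.7 CPM (counts scaled to a common library total). Intervals on counts and such floors cover counting error only. Neither the library kit nor the strand setting of the counting is given in the sources used here. A stranded library counted with the opposite setting would list reads of the other strand at a symbol; whether that holds here was not tested, and the doubt applies to every gene below, Tkt included. Alb, the albumin gene, whose exons no other gene lies opposite, held 94 to 337 counts per library, while of the glycolytic genes Gapdh held 19 counts over all 9 libraries and Eno1 was listed at 0. Of the symbols that could be placed, the 24.1% with an exon of another gene opposite held 78.8% of the placed counts. Each value below is therefore the count listed at a symbol, and a rise or fall is one of listed counts. Whether those reads came from the named gene's own strand was not tested. Rn45s, the ribosomal RNA precursor, held 2.20% to 13.4% of the counts, and over 8% in CTRL replicate 1 and MODEL1 replicates 1 and 3. Hepatocyte markers were present (6 of the 7 listed were in the table, none at 0), with a summed level of 1902 to 2349 CPM in CTRL, 749 to 1727 in MODEL1 and 1136 to 1404 in MODEL2. The 6 macrophage markers summed to 23.5 to 52.5 CPM in CTRL, 61.5 to 105 in MODEL1 and 27.7 to 40.3 in MODEL2, with Adgre1 at 0 throughout. The 5 cholangiocyte markers summed to 0 in CTRL, 9.11 to 12.3 CPM in MODEL1 and at most 4.15 CPM in MODEL2, with Krt7, Epcam and Spp1 at 0. The 6 stellate or fibroblast markers summed to 8.08 to 13.4 CPM in CTRL, 13.1 to 24.6 in MODEL1 and at most 8.05 in MODEL2. The 4 adipocyte markers summed to 222 to 312 CPM in CTRL, 39.4 to 164 in MODEL1 and 157 to 170 in MODEL2, with Lep at 0. Nearly all of this was 1 gene, Cidec, at 222 to 312 CPM in CTRL, 39.4 to 164 in MODEL1 and 153 to 166 in MODEL2. The neutrophil markers, 3 of the 4 listed being in the table, were at 0. Of the 5 erythroid markers the 4 haemoglobin genes were at 0, and the sum was that of Alas2. It was 113 to 417 CPM in CTRL, 375 to 383 in MODEL1 and 132 to 286 in MODEL2. Alas2 shares exon sequence with Apex2 and Mir3620 on the other strand. The part of these shifts in the results below was not tested, and in whole liver fewer cells of a type and less RNA per cell cannot be told apart. The mouse symbol Nfe2l2 held 15, 25 and 7 counts over the 3 libraries of CTRL, MODEL1 and MODEL2, a ratio to CTRL of 1.55 (exact 95% counting interval 0.785 to 3.16) in MODEL1 and 0.473 (0.163 to 1.23) in MODEL2. Ctnnb1 held 8, 23 and 16 counts and shares exon sequence with Ulk4 on the other strand. Whether transcripts of the plasmids were counted under these symbols was not tested.

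The windows from 250 bases before to 50 bases after each RefSeq start of the 9 genes (GRCm38.p6, 12 windows) were searched on both strands for TGACNNNGC, the core of the antioxidant response element that NRF2 recognises, and for CTTTGA, a core recognised by the TCF/LEF partners of beta-catenin. The NRF2 core was found in 3 of the 12 windows, those of Pgd (at the second of its starts), Me1 (at the first of its starts) and G6pdx, against 12.4% of all 32851 windows. The TCF/LEF core was found in 4 of the 12 windows, those of Taldo1, Pgls, Me1 and G6pdx, against 16.0% of all windows. The 3 stretches with the NRF2 core are shown on the strand of the gene, with the core in capitals, beside the window of Tkt, the member called in both models, which held neither motif. Such a match is a description of the letters, not of a bound site.
Pgd (core at position +3 from the second start), chr4:149166045-149166105 (minus strand): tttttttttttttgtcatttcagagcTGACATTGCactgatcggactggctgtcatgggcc
Me1 (core at position -6), chr9:86695886-86695946 (minus strand): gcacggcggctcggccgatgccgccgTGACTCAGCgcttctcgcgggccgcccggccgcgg
G6pdx (core read on the other strand, at position -57), chrX:74428903-74428963 (minus strand): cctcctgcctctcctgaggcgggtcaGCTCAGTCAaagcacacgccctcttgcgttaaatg
Tkt (no core), chr14:30548881-30549180 (plus strand): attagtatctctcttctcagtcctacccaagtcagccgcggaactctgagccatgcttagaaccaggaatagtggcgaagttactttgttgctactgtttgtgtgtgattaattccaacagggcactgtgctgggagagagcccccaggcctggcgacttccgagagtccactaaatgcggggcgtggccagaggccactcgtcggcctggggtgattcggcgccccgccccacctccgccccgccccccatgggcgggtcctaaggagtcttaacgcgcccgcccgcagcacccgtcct
The core of Pgd, at its second start, lies inside the annotated gene, which on the minus strand begins at base 149166771. The window at the first start of Pgd held neither motif. The core of Me1 began 6 bases before its start. In G6pdx the NRF2 core and a TCF/LEF core shared bases, the latter beginning at position -51. The annotated Tkt gene of GENCODE begins before this RefSeq window, at base 30548359, so the window covers only the RefSeq start.

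The counts at Tkt, the transketolase gene, set both models apart from CTRL. Only G6pdx, Rpe and Tkt had enough counts for the test across libraries, and the other 6 genes are described by their counts. Of the 3 tested, Tkt was higher in MODEL1 and in MODEL2 than in CTRL by edgeR's quasi-likelihood test with Benjamini-Hochberg adjustment over 2639 genes. In that test 22.8% of all genes were called in MODEL1 against CTRL (11.9% higher) and 13.3% in MODEL2 against CTRL (8.3% higher). Tkt passed the filter on low counts through its model libraries alone, so 1 call among the 3 tested is no measure of the pathway. In MODEL2 against MODEL1, where 7.28% of all genes were called, none of the 3 was, by edgeR, by DESeq2 or at an unadjusted p under 0.05 in edgeR.

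**Figure D1:**
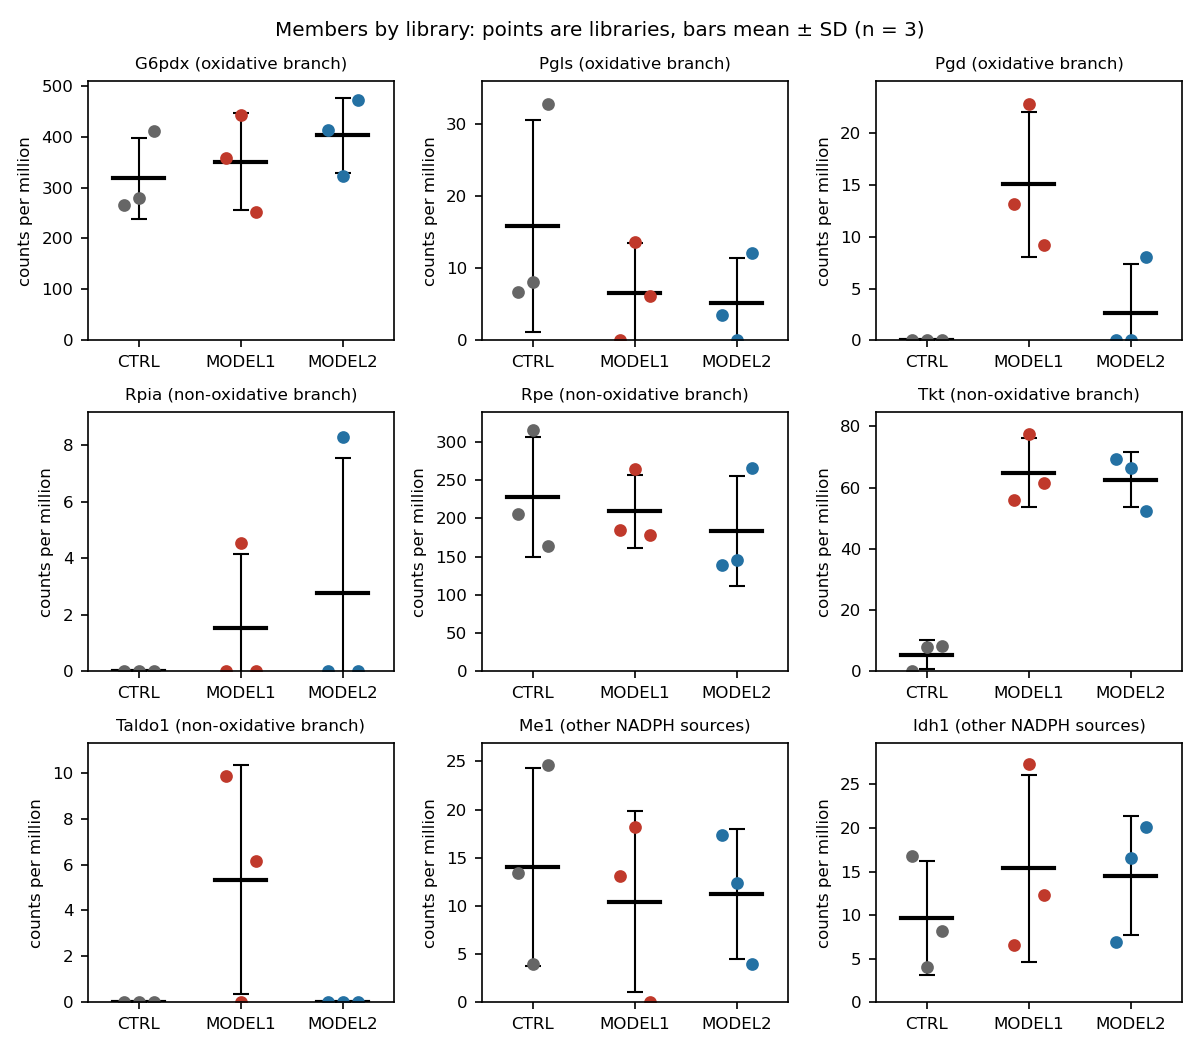
Each panel plots CPM (vertical axis, starting at 0) of a gene in the 9 libraries by group; points are libraries, the thick bar is the mean and the whiskers the SD (n = 3), drawn down to 0 at most. Tkt is the gene whose model libraries, between 52.3 and 77.4 CPM, all lie above the CTRL libraries, at 0 to 8.20 CPM.

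In the oxidative branch, glucose-6-phosphate dehydrogenase (G6pdx), the rate-limiting first step, had the most counts. G6pdx (ENSMUSG00000031400.10, mm10, chromosome X, 74409483 to 74429194, minus strand) held 79, 69 and 100 counts in the CTRL libraries, against 109, 97 and 82 for MODEL1 and 119, 78 and 117 for MODEL2, in replicate order here and below. The groups overlapped in CPM, with CTRL replicate 3 above 2 MODEL1 libraries and 1 MODEL2 library. Means were 318 ± 79.9, 351 ± 95.1 and 402 ± 74.3 CPM (SD, n = 3) in CTRL, MODEL1 and MODEL2. The log2 fold change was 0.01 ± 0.25 (SE; 95% interval -0.52 to 0.53, edgeR adjusted p = 0.988) in MODEL1 and 0.24 ± 0.25 (-0.28 to 0.76, adjusted p = 0.597) in MODEL2. A rise of the listed counts by more than 0.76 on that scale lay outside both intervals. G6pdx shares exon sequence with Ikbkg on the other strand, so these intervals bound the listed counts, not the G6pdx transcript. On counts alone MODEL2 stood at 1.28 times CTRL (counting interval 1.08 to 1.52), an interval that leaves out the spread between libraries. G6pd2, the intronless copy of this gene, was at 0 counts in all 9 libraries.

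The other oxidative genes had few counts. 6-phosphogluconolactonase (Pgls, chromosome 8, 71592176 to 71601092, plus strand), the hydrolase of the second step, held 2, 2 and 8 counts in CTRL, with 0, 3 and 2 for MODEL1 and 1, 0 and 3 for MODEL2. Its ratio to CTRL was 0.387 (counting interval 0.107 to 1.18) in MODEL1 and 0.338 (0.0794 to 1.12) in MODEL2, with 8 of the 12 CTRL counts in replicate 3. 6-phosphogluconate dehydrogenase (Pgd, ENSMUSG00000028961.15, chromosome 4, 149149991 to 149166771, minus strand), the step that yields the second NADPH, was not counted in any CTRL library. It held 4, 5 and 3 counts in MODEL1, or 15.1 ± 6.97 CPM (SD, n = 3), and 0, 0 and 2 counts in MODEL2.

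Every MODEL1 library therefore lay above every CTRL library for Pgd, and every MODEL2 library below every MODEL1 library. Such an order was seen for 8.57% of the 14907 symbols with a count in any library for MODEL1 above CTRL, and for 6.35% of them for MODEL2 below MODEL1. Pgd was at least 3.72-fold higher in MODEL1 than in CTRL, with the CTRL group set at 3 counts over its libraries; without CTRL replicate 1 this bound was 2.32. MODEL2 stood at 0.182 times MODEL1 (counting interval 0.0198 to 0.817), and without MODEL2 replicate 3, which held both of its counts, at least 2.50-fold lower. In a fit with no filter on low counts the Pgd difference between MODEL1 and CTRL had an unadjusted p of 0.00955 and an edgeR adjusted p of 0.163. The difference between MODEL2 and CTRL, 2 counts against 0, was not detectable at this depth.

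In the non-oxidative branch, transketolase (Tkt), the enzyme that moves carbon pairs between sugars and links the pathway to glycolysis, was the gene that rose; Tkt (ENSMUSG00000021957.7, mm10, chromosome 14, 30548359 to 30574720, plus strand) held 0, 2 and 2 counts in CTRL, as against 17, 17 and 20 for MODEL1 and 20, 16 and 13 for MODEL2. All 6 model libraries lay above all 3 CTRL libraries, an order that 8.57% of symbols showed for MODEL1 and 6.1% for MODEL2, and the models overlapped each other. Means were 5.43 ± 4.70, 64.9 ± 11.2 and 62.7 ± 9.07 CPM (SD, n = 3) in CTRL, MODEL1 and MODEL2.

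Tkt rose by 3.40 ± 0.68 on the log2 scale in MODEL1 (SE; 95% interval 1.99 to 4.82, edgeR adjusted p = 0.000686). In MODEL2 the rise was 3.40 ± 0.69 (1.98 to 4.83, edgeR adjusted p = 0.00151). The models differed by 0.00 ± 0.49, with a 95% interval of -1.01 to 1.01 and an edgeR adjusted p of 0.999, so a difference of up to about that size between G31A and T80K was not resolved. On counts, 54 in MODEL1 and 49 in MODEL2 against 4 in CTRL gave ratios of 12.5 (counting interval 4.63 to 47.7) and 12.4 (4.55 to 47.4). The exact two-sided permutation test of 3 libraries against 3 gave p = 0.1 for Tkt in each model, the smallest p that design allows, among 27 such tests over the 9 genes and 3 comparisons.

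The size of the Tkt rise rested on few CTRL counts. Without CTRL replicate 1, which held 0 counts and is rich in Rn45s, the count ratios were 7.82 and 7.74 and the log2 fold changes 2.82 ± 0.69 in each model (edgeR adjusted p = 0.00442 and 0.0103). With age in weeks as a covariate the MODEL1 call held (3.54 ± 1.05, edgeR adjusted p = 0.0309) and the MODEL2 call did not (3.62 ± 1.45, edgeR adjusted p = 0.274). The summed hepatocyte markers were lower in every model library than in any CTRL library, and their part in the Tkt rise was not tested. No exon of another gene lies opposite the exons of Tkt.

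Ribulose-5-phosphate 3-epimerase (Rpe), which makes xylulose-5-phosphate for transketolase, held the most counts of this branch. It shares exon sequence with Kansl1l on the other strand. Rpe (ENSMUSG00000026005.15, chromosome 1, 66700831 to 66719805, plus strand) held 61, 78 and 40 counts in CTRL, next to 56, 58 and 58 for MODEL1 and 40, 35 and 66 for MODEL2. Its 3 groups overlapped, with the widest range inside CTRL, from 164 to 315 CPM. Means were 228 ± 78.1, 209 ± 48.0 and 183 ± 71.5 CPM (SD, n = 3). The log2 fold change was -0.30 ± 0.32 (95% interval -0.96 to 0.36, edgeR adjusted p = 0.547) in MODEL1 and -0.46 ± 0.32 (-1.13 to 0.21, adjusted p = 0.397) in MODEL2.

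Ribose-5-phosphate isomerase (Rpia, chromosome 6, 70765720 to 70792232, minus strand) was at the edge of detection, with no CTRL count, 1 count in MODEL1 and 2 in MODEL2, all in replicate 2 of each model, which gives no fold. Transaldolase (Taldo1, chromosome 7, 141392199 to 141402968, plus strand), which transfers a carbon triplet between sugar phosphates, held 0 counts in CTRL and MODEL2 and 3, 0 and 2 in MODEL1. The bound for MODEL1 over CTRL was at least 1.55-fold higher, and without CTRL replicate 1 it was 0.965, which no longer gives a direction. For MODEL2 against MODEL1 the bound was at least 1.53-fold lower, and 0.961 without MODEL2 replicate 1.

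The other NADPH sources showed no difference beyond counting error. Malic enzyme 1 (Me1, chromosome 9, 86581371 to 86695953, minus strand), which makes NADPH from malate in the cytosol, held 4, 1 and 6 counts in CTRL, with 4, 4 and 0 for MODEL1 and 5, 3 and 1 for MODEL2. Its ratio to CTRL was 0.676 (counting interval 0.236 to 1.85) in MODEL1 and 0.830 (0.304 to 2.20) in MODEL2. Isocitrate dehydrogenase 1 (Idh1, chromosome 1, 65158616 to 65186500, minus strand), the cytosolic NADP-linked form, held 5, 1 and 2 counts in CTRL, with 2, 6 and 4 for MODEL1 and 2, 4 and 5 for MODEL2. Its ratio to CTRL was 1.39 in each model, with counting intervals of 0.524 to 3.93 and 0.511 to 3.99. Without the 3 libraries rich in Rn45s, which leaves MODEL1 with 1 library, the MODEL1 ratio of Idh1 was 4.48.

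Per kilobase of exon, the order of mean listed counts in CTRL was G6pdx at 103 CPM per kb, Rpe at 73.2, Pgls at 4.21, Me1 at 3.65, Idh1 at 3.49 and Tkt at 0.738, with Pgd, Rpia and Taldo1 at 0. With the strand setting unknown, this is not an order of transcript levels. G6pdx, Rpe and Me1 share 418, 558 and 30 exon bases with a gene on the other strand. The part of these overlaps in the order was not tested. The CTRL libraries of G6pdx (86.2 to 133 CPM per kb) and Rpe (52.7 to 101) overlapped, as did those of Pgls (1.78 to 8.70), Me1 (1.05 to 6.39) and Idh1 (1.46 to 6.06), while Tkt (0 to 1.12) lay below Pgls and Idh1 in every library. In the models Tkt came next after G6pdx and Rpe, with means of 8.83 CPM per kb in MODEL1 and 8.52 in MODEL2. Its libraries overlapped those of Idh1 in both models: Tkt ranged from 7.60 to 10.5 CPM per kb in MODEL1 and 7.11 to 9.42 in MODEL2, and Idh1 from 2.37 to 9.86 and 2.50 to 7.26. G6pdx and Rpe overlapped in MODEL1 as well, whereas in MODEL2 every G6pdx library (105 to 153 CPM per kb) lay above every Rpe library (44.5 to 85.3).

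**Figure D2:**
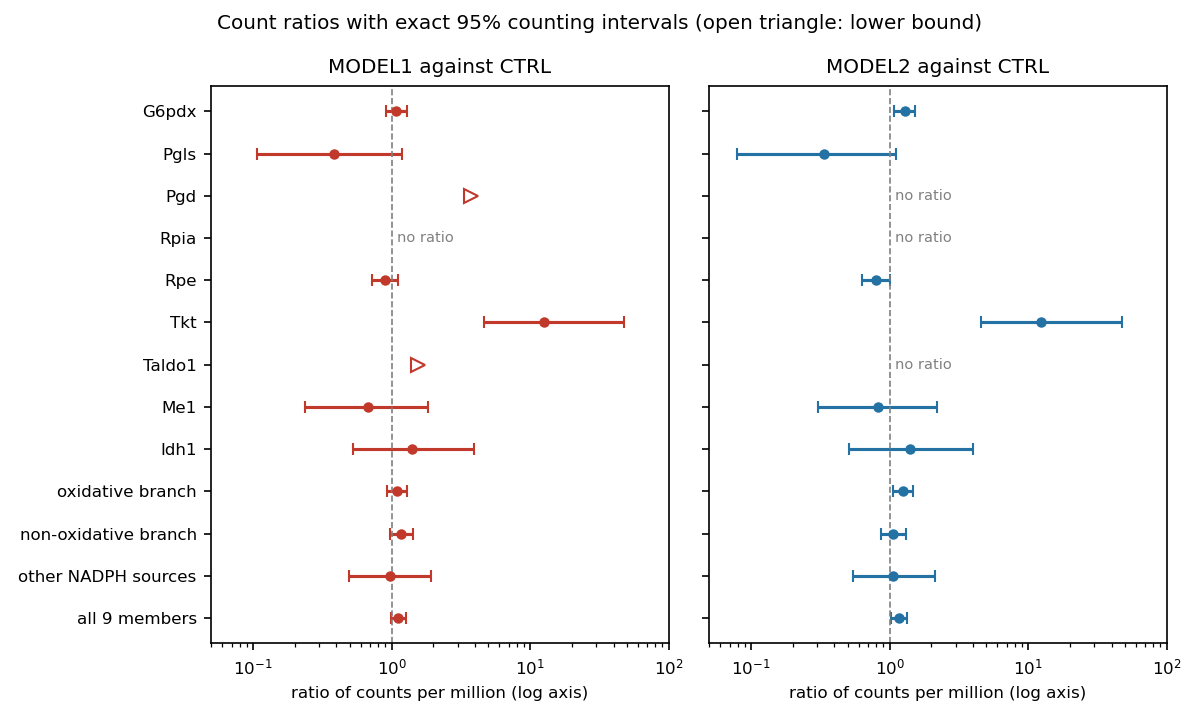
Horizontal axis, on a log scale: ratio of summed CPM of each model to CTRL, for each gene and for the summed branches; points with whiskers are ratios with exact 95% counting intervals, open triangles are lower bounds where CTRL had 0 counts, and "no ratio" marks genes with 3 or fewer counts in both groups. The Tkt ratios of 12.5 and 12.4 stand apart from the other ratios drawn as points, which lie between 0.338 and 1.39. The lower bounds in MODEL1, 3.72 for Pgd and 1.55 for Taldo1, have no upper limit.

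Summed by branch, the counts differed little between groups. The oxidative branch held 260, 305 and 320 counts in CTRL, MODEL1 and MODEL2, ratios to CTRL of 1.09 (counting interval 0.921 to 1.29) and 1.25 (1.06 to 1.48). The non-oxidative branch held 183, 232 and 192 counts, ratios of 1.18 (0.967 to 1.44) and 1.06 (0.864 to 1.31). The other NADPH sources held 19, 20 and 20 counts, ratios of 0.978 (0.496 to 1.94) and 1.07 (0.541 to 2.11). Over all 9 genes the ratios were 1.12 (0.989 to 1.27) and 1.17 (1.03 to 1.33).

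These sums were carried mainly by G6pdx and Rpe, with 850 and 492 counts. Both, and Me1 with 28 counts, share exon sequence with a gene on the opposite strand. Of the table's symbols that could be placed, 24.1% have such an overlap and hold 78.8% of the placed counts. With the strand setting unknown, the reads of such a pair cannot be told apart. G6pdx shares 418 bases, 13.6% of its exon length, with Ikbkg, the regulatory subunit of the NF-kB kinase. Rpe shares 558 bases, 17.9%, with Kansl1l, and Me1 shares 30 bases, 0.780%, with the non-coding A330041J22Rik. G6pdx, Rpe and Me1 together held 1370 of the 1551 counts of the 9 genes, or 88.3%.

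Counts listed at the neighbours did not all follow those listed at the members. With the strand setting unknown, reads of either gene of a pair may be listed at the other. These values therefore do not separate the genes of a pair. Ikbkg held 4 counts in CTRL as a whole, 8 in MODEL1 and 6 in MODEL2. Kansl1l held 361, 345 and 339 counts in the same order, with an edgeR log2 fold change of -0.31 ± 0.21 (adjusted p = 0.323) in MODEL1 and -0.18 ± 0.21 (adjusted p = 0.646) in MODEL2. A330041J22Rik, with 288 ± 128, 521 ± 93.8 and 631 ± 126 CPM (SD, n = 3), rose in MODEL2 by 1.00 ± 0.30 on the log2 scale (edgeR adjusted p = 0.0272), while its MODEL1 value was 0.68 ± 0.30 (adjusted p = 0.112). The MODEL2 call was lost without CTRL replicate 1 or 3 or MODEL2 replicate 1 or 2, with log2 fold changes of 0.64 to 1.07, and the MODEL1 difference was called without CTRL replicate 2 (1.05, edgeR adjusted p = 0.0114) and with age as a covariate (1.83, adjusted p = 0.00322). With age the MODEL2 value was 2.79 and remained called. Me1 itself was at 14.0 ± 10.3, 10.5 ± 9.40 and 11.3 ± 6.73 CPM in the same groups.

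**Figure D3:**
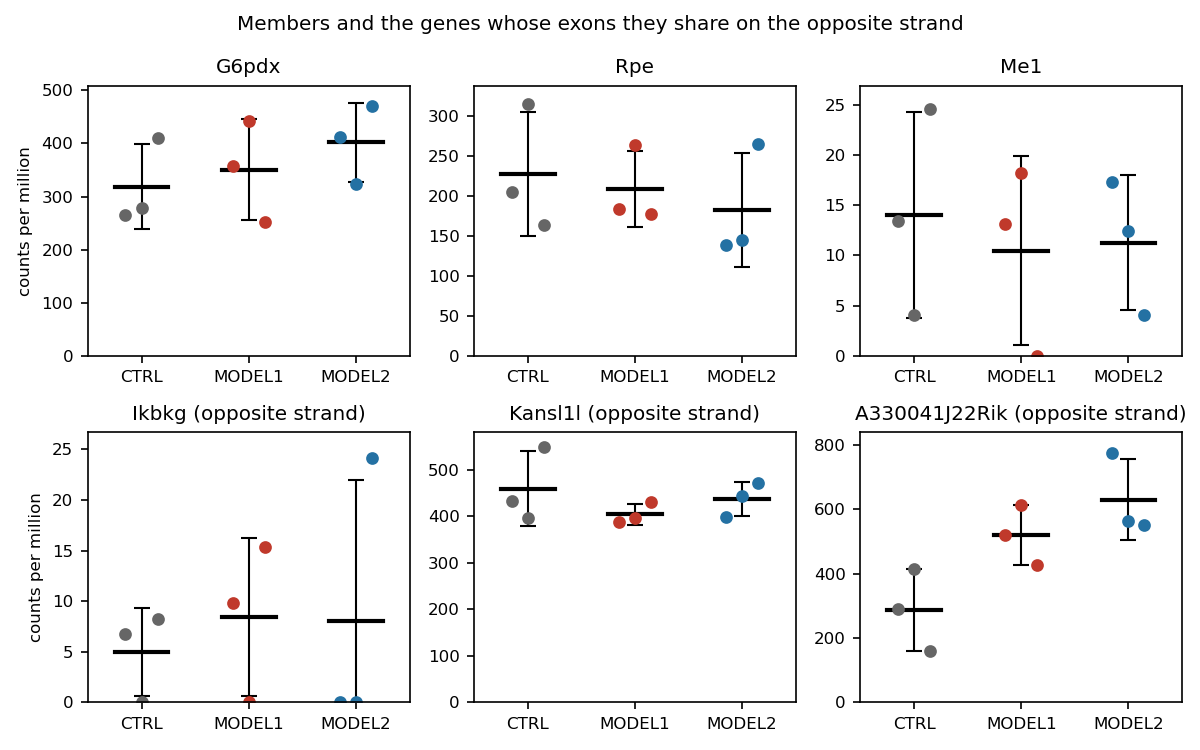
CPM (vertical axes, starting at 0) by group for the 3 genes with an opposite-strand exon (top) and the gene they share it with (bottom); points are libraries, bars the mean and SD (n = 3). Counts listed at A330041J22Rik rise from 288 CPM in CTRL to 631 CPM in MODEL2. Those listed at Me1, which shares 30 bases with it, have means of 10.5 to 14.0 CPM. With the strand setting unknown, reads of such a pair cannot be told apart.

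Without those 3 genes the branches read differently, a choice made after the values were seen. Pgls and Pgd held 12, 17 and 6 counts, ratios to CTRL of 1.32 (counting interval 0.593 to 3.02) in MODEL1 and 0.507 (0.156 to 1.46) in MODEL2. Rpia, Tkt and Taldo1 held 4, 60 and 51 counts, ratios of 13.9 (5.17 to 52.8) and 12.9 (4.75 to 49.3), of which Tkt alone made up 54 and 49 counts. The 6 genes together held 24, 89 and 68 counts, ratios of 3.45 (2.18 to 5.66) and 2.87 (1.78 to 4.79). MODEL2 stood at 0.833 times MODEL1 over these 6 genes (0.599 to 1.16).

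The genes whose log2 CPM over the 9 libraries was most like that of Tkt, among 2638 others tested, were Fam166a (Pearson r = 0.990), Abi3 (r = 0.984) and the small nucleolar RNA Snora20 (r = 0.977). Fam166a held 87, 133 and 171 counts in CTRL, then 1099, 722 and 1245 for MODEL1 and 996, 864 and 702 for MODEL2; it shares exon sequence with Tubb4b on the other strand. Abi3 held 57, 74 and 90, then 1227, 850 and 1029, then 887, 804 and 617 counts, and shares exon sequence with Gngt2, Phospho1 and Zfp652. Snora20 held 45, 63 and 58, then 131, 132 and 151, then 147, 105 and 129 counts. All 3, as Tkt, were lower in every CTRL library than in any model library, an order that 8.57% of symbols showed for MODEL1 and 6.1% for MODEL2. These genes were picked by their likeness to Tkt over the same libraries, so sharing its order is no separate result. The 9 points of each gene share library and depth. For G6pdx the likeness was highest with Endog (r = 0.936), E130218I03Rik (0.838) and Atxn7l1os2 (0.834), and for Rpe with Kat5 (0.882), Ppp2r3a (0.850) and E4f1 (0.836). All of these but E4f1 have an opposite-strand exon, and none passed the edgeR test in any comparison.

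Around the pathway, NAD kinase rose in both models. Of 14 further genes, most of which make NADPH or its precursor, 2 were tested and 1, Nadk, was called higher in each model. Among all genes, 11.9% were called higher in MODEL1 and 8.3% in MODEL2. The median log2 fold change of these 2 genes was 1.78 in MODEL1 and 1.67 in MODEL2, where the median of all genes was 0.00 in each. Nadk passed the filter on low counts through its model libraries alone. Neither its call nor a median of 2 genes is therefore a measure of the list. NAD kinase (Nadk, chromosome 4, 155562378 to 155591001, plus strand), which phosphorylates NAD to the NADP that these dehydrogenases reduce, held 2, 4 and 3 counts in CTRL, then 131, 55 and 51 for MODEL1 and 27, 25 and 36 for MODEL2. Every MODEL1 library lay above every MODEL2 library, and these above every CTRL library. Of symbols with a count in any library, 8.57% showed such an order for MODEL1 above CTRL. The share was 6.1% for MODEL2 above CTRL and 6.35% for MODEL2 below MODEL1. The rise was 4.45 ± 0.51 on the log2 scale in MODEL1 (edgeR adjusted p = 7.8e-07) and 3.14 ± 0.54 in MODEL2 (edgeR adjusted p = 0.000293).

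Nadk was lower in MODEL2 than in MODEL1 by edgeR (log2 difference -1.31 ± 0.37, adjusted p = 0.0380), where 3.41% of all genes were called lower. That call was lost in 8 of 18 alternative settings, among them without MODEL1 replicate 1 or 2 or any MODEL2 replicate. Without MODEL1 replicate 1, which held 131 counts, the difference was -0.71 (edgeR adjusted p = 0.319). With age as a covariate the MODEL2 rise over CTRL was 2.54 (edgeR adjusted p = 0.369). The other tested gene of the list, Aldh1l1, a folate enzyme, had a log2 fold change of -0.89 ± 0.56 (edgeR adjusted p = 0.279) in MODEL1 and 0.19 ± 0.52 (adjusted p = 0.866) in MODEL2; it has Gm15756 on its other strand.

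Of 26 neighbours in pentose metabolism and glycolysis only 3 could be tested, among them the glycolytic Tpi1 and the polyol enzyme Sord. None of the 3 was called in any comparison by edgeR, and their median log2 fold change was 0.68 in MODEL1 and -0.02 in MODEL2. Tpi1, which shares exon sequence with Spsb2, had the highest MODEL1 value, 1.30 ± 0.63 (edgeR adjusted p = 0.149), which was 2.21 without CTRL replicate 3 (adjusted p = 0.0488).

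Among 26 enzymes that use NADPH, 10 were tested, and 4 rose in MODEL1 and 1 in MODEL2 (median log2 fold change 1.17 and 0.58). Of all genes, 11.9% were called higher in MODEL1 and 8.3% in MODEL2. Thioredoxin reductase 1 (Txnrd1) held 6, 2 and 2 counts in CTRL, then 14, 25 and 22 for MODEL1 and 15, 4 and 12 for MODEL2. It rose by 2.36 ± 0.62 in MODEL1 (edgeR adjusted p = 0.00723, and 0.0865 with age as a covariate), and its MODEL2 value was 1.50 ± 0.65 (adjusted p = 0.145). Glutathione reductase (Gsr) held 1, 4 and 2, then 13, 13 and 14, then 4, 0 and 4 counts, a rise of 2.21 ± 0.76 in MODEL1 (edgeR adjusted p = 0.0377) that was lost in 12 of 18 alternative settings, with adjusted p up to 0.463, among them without CTRL replicate 1 or 3, any MODEL1 replicate, or MODEL2 replicate 1 or 3. The aldo-keto reductase Akr1c6 rose by 2.06 ± 0.67 in MODEL1 (edgeR adjusted p = 0.0284), a call lost without CTRL replicate 2 or 3 and without MODEL1 replicate 2 or 3. It was also lost with age as a covariate (1.77, edgeR adjusted p = 0.349) and with the replicate number as a block (2.05, edgeR adjusted p = 0.0636). Txnrd1, Gsr and Akr1c6 each held under 10 counts in every CTRL library and passed the filter through model libraries. The count of calls and the medians are therefore no measure of the list.

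Of 11 genes that NRF2 is known to drive, most of them glutathione and thioredoxin genes, 6 had enough counts to be tested. All of these 6 rose in MODEL1 and 5 in MODEL2 (median log2 fold change 5.01 and 3.58), where 11.9% and 8.3% of all genes were called higher. Apart from Gclc, which held 14 to 28 counts per CTRL library, these genes had at most 6 counts in any CTRL library and passed the filter through model libraries, so the count and the median are no measure of the list. With age as a covariate 1 of the 5 MODEL2 calls held, that of Gstm4, while Abcc4 (adjusted p = 0.368), Ugdh (0.253) and Srxn1 (0.0794) were among those lost. The cystine transporter Slc7a11 was not called in MODEL2 (1.24 ± 0.72, edgeR adjusted p = 0.301). The organic anion exporter Abcc4 held 1 count in CTRL as a whole against 181 for MODEL1 and 51 for MODEL2, ratios of 168 (counting interval 29.8 to 6681) and 51.7 (8.87 to 2082). The glutathione transferase Gstm4 held 2, 225 and 85 counts, the sulfiredoxin Srxn1 1, 70 and 20, and UDP-glucose dehydrogenase Ugdh 2, 63 and 25. MODEL2 was lower than MODEL1 by edgeR for Abcc4 (-1.71 ± 0.40, adjusted p = 0.0104), Gstm4 (-1.26 ± 0.35, adjusted p = 0.0349) and Slc7a11 (-2.31 ± 0.53, adjusted p = 0.0104), the last named after its values were seen. Each of these 3 calls was lost when some single libraries were left out: MODEL1 replicate 2 or MODEL2 replicate 1 or 2 for Abcc4, any MODEL1 replicate or MODEL2 replicate 1 or 3 for Gstm4, and MODEL2 replicate 3 for Slc7a11. Tkt had no such difference, 0.00 ± 0.49; whether the gap between models differed between these genes and Tkt was not tested. Both comparisons with CTRL share the same 3 CTRL libraries.

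**Figure D4:**
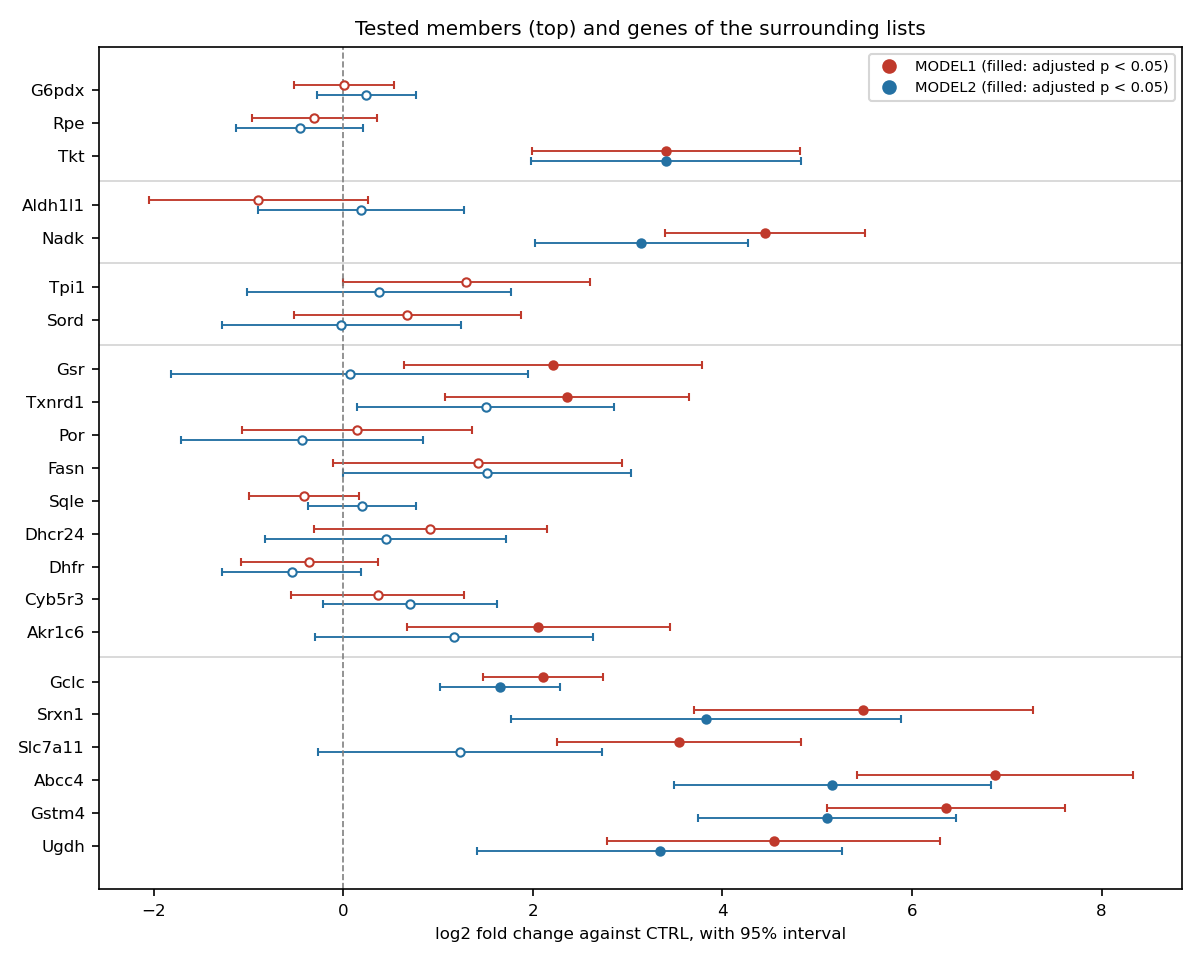
Horizontal axis: log2 fold change of each model against CTRL from edgeR, with its 95% interval; filled points passed an adjusted p of 0.05. From top to bottom the blocks are the 3 tested pentose phosphate genes, further NADPH makers, pentose and glycolysis neighbours, NADPH users, and the listed NRF2 genes. Of the lists, 2 tested genes are not shown. Tkt and Nadk have filled points in both models, while G6pdx and Rpe lie on 0 within their intervals.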

How the data were processed

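RNA-seq gene counts of 9 mouse liver libraries were analysed, 3 each from CTRL, MODEL1 and MODEL2, grouped by the labels. The deposited table holds raw counts, whole-number reads per gene symbol with no normalization. The submitters' processing notes name HISAT2 2.1.0, HTSeq 0.11.2, Trimmomatic 0.38 and build mm10; their roles, the annotation and the strand setting are not given in the sources used here. Total RNA was extracted with Trizol, per the labels' protocols.

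Counts were tested in R 4.3.3 with edgeR 4.0.16: filterByExpr by group (minimum count 10), TMM scaling, and the quasi-likelihood F test with 1 coefficient per group over all 9 libraries. p-values were two-sided and adjusted by Benjamini-Hochberg over 2639 genes, with a threshold of 0.05. The common biological coefficient of variation was 0.259. The SE is the log2 fold change divided by the square root of F. For genes under the filter, summed counts per library total are compared with exact conditional binomial 95% intervals; a group at 0 is set at 3 counts. Likeness used log2 CPM with a prior count of 2. Exon overlaps were taken from GENCODE M21 with bedtools 2.31.1, which placed 23335 symbols; promoter windows are from RefSeq. The code was tested on simulated data. Alternatives were DESeq2 1.42.0, its size factors, other filters, age, the replicate number, fewer groups, Rn45s left out, and libraries left out.

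The 9 genes and the lists were chosen with earlier results of these data known. Named were all 9 genes, up to 4 called genes a list by size, the 3 most alike genes per tested member, exon neighbours on the other strand, G6pd2 and the injected genes. A few results on single list genes are not reported here. Replicates did not duplicate each other (chi-square per degree of freedom 3.11 to 16.8).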

Additional observations from a re-analysis of the deposited data

How the results depend on the processing

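Tkt kept its direction in MODEL1 and its call in all 18 alternatives, with log2 fold changes of 2.82 to 3.84 and edgeR or DESeq2 adjusted p of 0.000117 to 0.0395, and in MODEL2 in 17 of 18 (2.82 to 3.85, adjusted p 0.000139 to 0.274). With age as a covariate no member was called in MODEL2 (0 calls), the calls over all genes fell from 602 to 299 in MODEL1 against CTRL, from 350 to 72 in MODEL2 against CTRL and from 192 to 101 in MODEL2 against MODEL1; age and group are confounded. Without the 3 libraries rich in Rn45s, which leaves MODEL1 with 1 library assumed to vary as the other groups do, the calls were 299, 210 and 62. Leaving out 1 library at a time gave 223 to 374 calls in MODEL2 against CTRL (223 without CTRL replicate 1) and 85 to 226 in MODEL2 against MODEL1, under 128 without MODEL1 replicate 2 or 3 or any MODEL2 library. Replicate numbers did not pair the samples (correlations of same-numbered deviations -0.121 to 0.0103); with the number as a replicate block the calls in MODEL2 against MODEL1 were 125 and Tkt rose by 3.41 and 3.40 (edgeR adjusted p = 0.00243 and 0.00525). No called log2 fold change changed sign. Of the count ratios, 400 recomputed values stayed within their error and 14 moved. Leaving out 1 library gave bounds for Pgd in MODEL1 over CTRL of 2.32 to 4.52, Pgd values of 0.150 to a bound of 2.50-fold lower for MODEL2 against MODEL1, and Taldo1 bounds of 0.965 to 2.09 and 0.961 to 2.06. Without the libraries rich in Rn45s, MODEL1 stood at 4.48 times CTRL for Idh1 and 2.24 times for the other NADPH sources. Without genes that share exons, chosen after seeing the data, the oxidative branch stood at 1.32, 0.507 and 0.385 (MODEL1 and MODEL2 against CTRL, MODEL2 against MODEL1), the non-oxidative branch at 13.9 and 12.9 in the models, and all genes at 3.45, 2.87 and 0.833. The oxidative ratios of MODEL2 to CTRL and to MODEL1, 1.25 and 1.14 with these genes, and that of all genes between models, just above 1 with them, thereby turned direction.

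The list counts moved as follows. NADPH users had 4 calls in MODEL1, 1 with age, 2 with the replicate block and 2 to 5 over left-out libraries, and 1 call in MODEL2, 0 with age, 2 with either other filter, with only the groups compared or without the libraries rich in Rn45s, and 1 to 2 over left-out libraries; between models 1 was called with only the groups compared. NRF2 genes had 5 calls in MODEL2, 1 with age and 3 with only the groups compared, and 3 between models, 1 with age or without the libraries rich in Rn45s and 1 to 3 over left-out libraries. Nadk, the call of the NADPH makers, was lost (0) in MODEL2 with age, and between models with age, the replicate block, or without the libraries rich in Rn45s, with 0 to 1 over left-out libraries. The neighbours gained 1 call in MODEL1 with either other filter (Gpi1) and 0 to 1 over left-out libraries (Tpi1). Of the members, 6 of the 9 genes held too few counts to test across libraries. The cause of these shifts was not tested.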

Other observations

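Several genes around the pathway fell under the filter on low counts; these were picked after their values were seen and are values with no test, except where an unfiltered fit is named. Carbonyl reductase 1 (Cbr1), which uses NADPH to reduce carbonyls, held 0 counts in each CTRL library, 12, 16 and 11 in MODEL1, and 2, 6 and 2 in MODEL2, at least 12.1-fold higher in MODEL1 and at least 3.38-fold higher in MODEL2 with CTRL set at 3 counts over its libraries. MODEL2 stood at 0.280 times MODEL1 for Cbr1 (exact 95% counting interval 0.125 to 0.571). The quinone reductase Nqo1 held 0 counts in CTRL, 2, 4 and 6 in MODEL1, and 0, 4 and 0 in MODEL2, so all 4 MODEL2 counts came from replicate 2. Glucose-6-phosphate isomerase (Gpi1), at the branch point between glycolysis and the oxidative branch, held 0 counts in CTRL, 5, 10 and 9 in MODEL1, and 2, 0 and 0 in MODEL2; it was at least 7.44-fold higher in MODEL1 than in CTRL and shares exon sequence with Gm26762. Pgm2, which converts pentose and hexose phosphates, held 7, 24 and 19 counts over the 3 groups, 3.19 times CTRL (1.33 to 8.76) in MODEL1 and 2.75 times (1.11 to 7.75) in MODEL2, with 6 of the 7 CTRL counts in replicate 1.

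Outside the pathway, the fatty aldehyde dehydrogenase Aldh3a2 held 8 counts in CTRL as a whole, 19 for MODEL1 and 21 for MODEL2, ratios of 2.21 (0.923 to 5.83) and 2.66 (1.13 to 6.95). H6pd, the endoplasmic counterpart of the first oxidative step, held 13, 24 and 14 counts, ratios of 1.72 (0.840 to 3.67) and 1.09 (0.476 to 2.52). The mitochondrial Idh2 held 6, 14 and 8 counts, ratios of 2.17 (0.783 to 6.89) and 1.35 (0.411 to 4.73).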
